A study of Mus musculus with 4 samples.

Results

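The adhesion molecules of the vessel wall were followed as 8 genes, taken by symbol from the 32285 features counted in single cells of mouse aorta. They were the immunoglobulin-family ligands Vcam1, Icam1 and Icam2, the selectins Sele and Selp, the selectin ligand Selplg, and the integrin chains Itga4 and Itgb2. All 8 were present in all 4 libraries, and all 8 had UMIs (unique molecular identifiers, 1 per captured RNA molecule) in each of them. The study, whose title concerns epsins in atheroma, gave 1 library for each of 4 groups. On normal diet these were WT and LysM-DKO, and on western diet WT/ApoE-/- and LysM-DKO/ApoE-/-. Every set of 4 values below is in that order. LysM-DKO is not spelled out in the labels; LysM is the usual name of the Cre line driven by the Lyz2 promoter, which acts in myeloid cells, and epsins are endocytic adaptor proteins. Both western diet groups carry the ApoE-/- genotype, which leaves mice without the apolipoprotein that clears lipoprotein remnants, and neither normal diet group does. Age, sex and the number of animals pooled into a library are not given in the labels.

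Leukocytes leave the blood in steps. E-selectin (Sele) and P-selectin (Selp) on activated endothelium catch passing cells through PSGL-1 (Selplg), and chemokine-activated integrins then bind VCAM-1 and ICAM-1, which hold the cell on the wall. The Itga4 chain is part of VLA-4, the receptor of VCAM-1, and Itgb2 is the shared chain of LFA-1 and Mac-1, receptors of ICAM-1 and ICAM-2. VCAM-1, ICAM-1 and E-selectin are inducible through NF-kB, ICAM-2 is present on resting endothelium, and P-selectin is stored in Weibel-Palade bodies of endothelium and in platelet granules. In atherosclerosis VCAM-1 is also known from smooth muscle cells of the intima.

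On GRCm38 (GENCODE M21) Vcam1 lies at chr3:116109949-116129688 on the minus strand, Icam1 at chr9:21015985-21028817 on the plus strand and Icam2 at chr11:106377656-106388075 on the minus strand. Sele (chr1:164048234-164057677) and Selp (chr1:164115264-164150026) are neighbours on the plus strand of chromosome 1, 57.6 kb apart. Selplg lies at chr5:113818536-113832644 on the minus strand, Itga4 at chr2:79255426-79333123 on the plus strand and Itgb2 at chr10:77530252-77565708 on the plus strand. Vcam1, Icam1, Selp and Itga4 overlap other annotated genes on the opposite strand (Gm43109, Gm47079, Gm16587 with Gm16548, and Cerkl). Whether counting used strand is not given in the sources used here, so reads of such pairs may not be told apart.

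RefSeq promoter entries (GRCm38.p6) were found for 4 of the 8 genes, namely Icam1, Sele, Selp and Itga4. The 250 bases before the start are printed for the cytokine-inducible Icam1 and Sele and for Selp, the neighbour of Sele. All 3 are on the plus strand, at chr9:21015690-21015939, chr1:164047984-164048233 and chr1:164115014-164115263, and capitals mark matches to GGANNTTCC.
Icam1 promoter: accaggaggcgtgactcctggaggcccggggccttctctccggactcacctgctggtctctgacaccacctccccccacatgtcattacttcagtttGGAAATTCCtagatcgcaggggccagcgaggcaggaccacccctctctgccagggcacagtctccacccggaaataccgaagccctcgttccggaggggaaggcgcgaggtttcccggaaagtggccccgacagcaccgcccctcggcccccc
Sele promoter: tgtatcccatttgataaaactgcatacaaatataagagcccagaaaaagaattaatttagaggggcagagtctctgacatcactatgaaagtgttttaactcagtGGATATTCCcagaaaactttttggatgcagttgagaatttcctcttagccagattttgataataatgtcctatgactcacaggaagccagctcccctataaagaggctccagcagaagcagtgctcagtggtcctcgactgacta
Selp promoter: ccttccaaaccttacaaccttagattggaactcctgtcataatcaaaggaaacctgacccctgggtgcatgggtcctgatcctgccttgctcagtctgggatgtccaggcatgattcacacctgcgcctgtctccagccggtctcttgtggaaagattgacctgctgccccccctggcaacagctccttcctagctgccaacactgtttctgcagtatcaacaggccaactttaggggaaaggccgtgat
GGANNTTCC was searched on both strands from 250 bases before to 50 bases after the start, and its matches can overlap those of the kappaB consensus, the site bound by NF-kB. The match in Icam1 ran from -153 to -145 and the match in Sele from -145 to -137. No match was found in the windows of Selp and Itga4. The same letters occur in 4.26% of the 32851 RefSeq windows of that span. The full kappaB consensus was found in none of the 4 windows and in 8.46% of all windows. These are matches of letters only.

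Barcodes under 1000 UMIs or above 10% mitochondrial UMIs were removed, which left 7758, 8230, 13744 and 8133 barcodes of 13831, 15826, 29724 and 11414. Each kept barcode took the first class whose marker sum it met, among macrophage, B, T, endothelial, fibroblast and smooth muscle, and the rest stayed unclassed. Between 2 libraries, 38 to 129 barcodes were shared. In 22 of the 24 combinations of class and library, all 8 separate markers of a class were highest in that class. The exceptions were T and endothelial barcodes of the LysM-DKO/ApoE-/- western diet library, with 7 of 8. The classes were mixed. In the endothelial class 78.1%, 69.4%, 78.9% and 83.2% of barcodes also met the smooth muscle rule. Its values are therefore also given for the 160, 269, 83 and 70 barcodes that did not. The rule was also met by 62.4%, 67.1%, 17.9% and 21.4% of B and 60.2%, 69.6%, 19.7% and 42.4% of T barcodes. It was met by 56.5%, 61.5%, 41.9% and 34.1% of macrophage and 39.6%, 44.6%, 35.5% and 27.7% of fibroblast barcodes. These shares differed between libraries, and their part in the levels was not tested. B and T barcodes numbered only 14 and 33 in the LysM-DKO/ApoE-/- western diet library. Apoe in macrophage barcodes was at 7012, 5435, 8.44 and 8.55 CPM (counts-per-million), low in both ApoE-/- libraries. Lyz2, the gene whose promoter drives LysM-Cre, was at 3696, 977, 4126 and 798, lower in both LysM-DKO libraries. Epn1 was at 81.7, 54.5, 52.4 and 42.7 and Epn2 at 35.6, 33.6, 33.2 and 15.7 CPM, so neither epsin was at 0 in a LysM-DKO library; a 3' tag outside the deleted part would not show the deletion. Xist outside macrophages was at 941, 942, 0.646 and 0.570 CPM and the Y-linked Ddx3y at 0, 0, 120 and 124, both chosen after their values were seen. Diet therefore cannot be told apart from the ApoE genotype, from the sex read from these genes or from the version of the counting software, which all differ with it.

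Levels are counts-per-million (CPM) within a class, from the UMIs that all its barcodes hold together, with exact Poisson 95% intervals where given. A log2 ratio is the level in the first-named library over that in the second, with an exact binomial 95% interval. With 1 library per group there was no replicate check and no test, and intervals cover counting error only. A ratio counts as past 2-fold only if the gene had at least 20 UMIs over both libraries. Levels count molecules of a 3' assay, not a value per gene length, and genes are not ranked against each other.

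**Figure D1:**
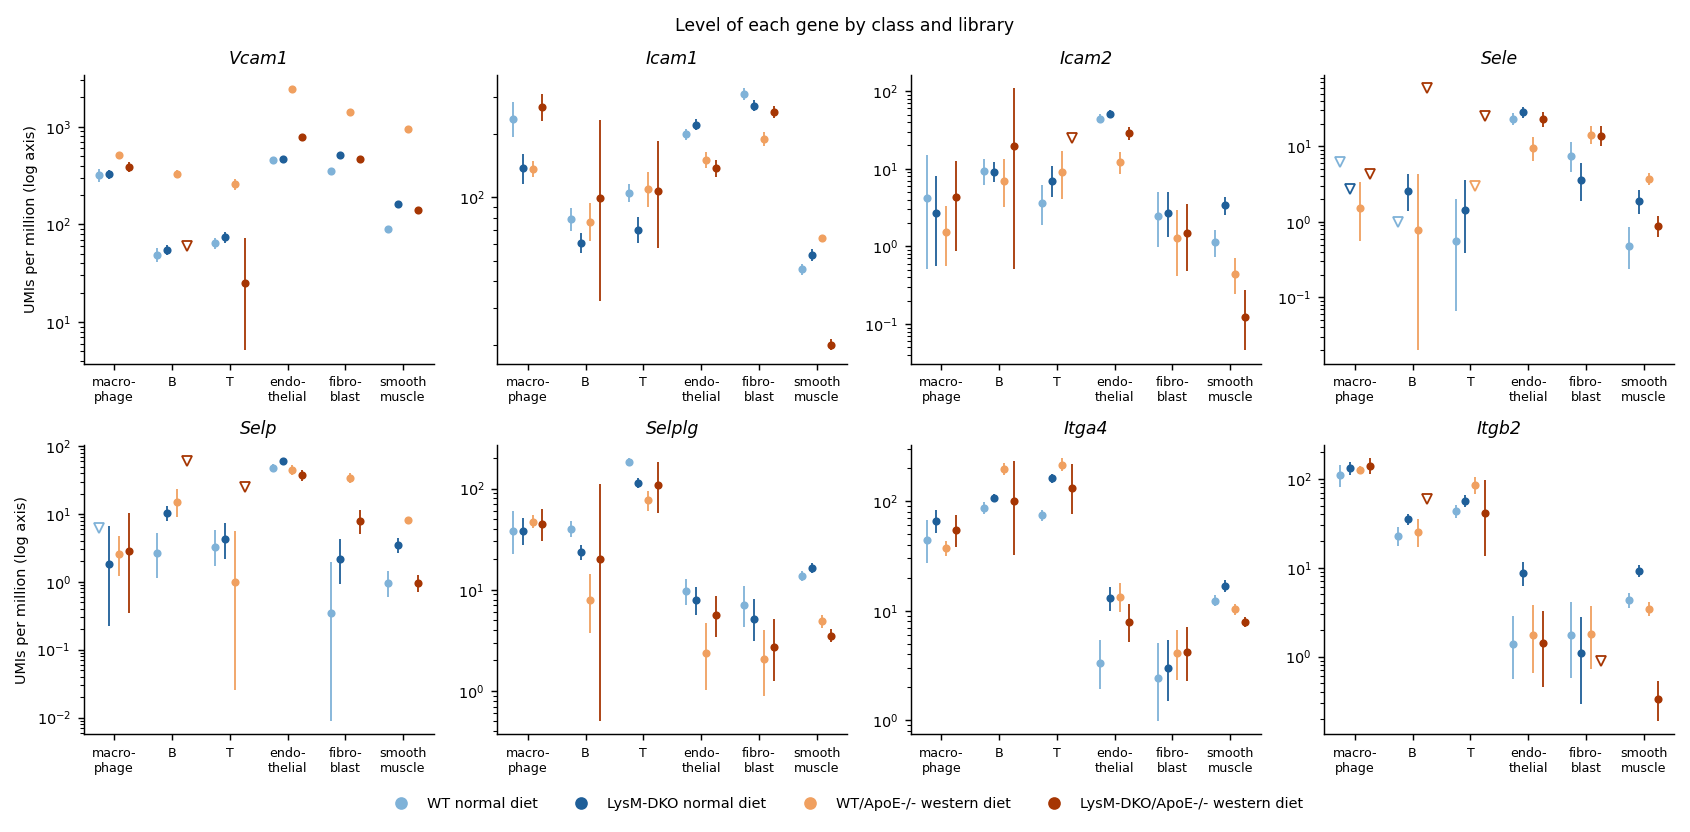
Level of each of the 8 genes (CPM, log axis) in 6 classes, 1 point per library with its exact Poisson 95% interval. Open triangles stand for 0 UMIs, placed at the level of 3 UMIs. Vcam1 in the WT/ApoE-/- western diet library (light orange) lies above the other libraries in all 6 classes, at 2463 in endothelial barcodes.

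Vcam1, the ligand of the integrin VLA-4, was highest in the WT/ApoE-/- western diet library in all 6 classes, by little in macrophage barcodes, where this order did not hold under other class rules. In smooth muscle barcodes it was at 90.7, 162, 949 and 139 CPM, from 2099, 2790, 32625 and 6722 UMIs. In endothelial barcodes it was at 453, 470, 2463 and 790 CPM, and in fibroblast barcodes at 352, 509, 1426 and 471. The third library stood out from the rest in each of these 3 classes, and their counting intervals did not touch. In macrophage barcodes Vcam1 was nearly level, at 318, 326, 518 and 388 CPM. Ordered by the median over libraries, endothelial barcodes (453 to 2463) came first, then fibroblast (352 to 1426), macrophage (318 to 518), smooth muscle (90.7 to 949), T (24.8 to 257) and B barcodes (0 to 327), and every neighbouring pair in this order overlapped in range.

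In the WT/ApoE-/- western diet library against WT normal diet, the log2 ratio of Vcam1 was 3.39 (3.32 to 3.45) in smooth muscle, 2.44 (2.37 to 2.51) in endothelial and 2.02 (1.92 to 2.12) in fibroblast barcodes. In macrophage barcodes it was 0.70 (0.46 to 0.95), but -0.60 with barcodes of a single class only and under the last matching class. In LysM-DKO/ApoE-/- against LysM-DKO the same contrast gave -0.22 (-0.28 to -0.16) in smooth muscle, 0.75 (0.67 to 0.83) in endothelial, -0.11 (-0.21 to -0.01) in fibroblast and 0.25 (0.02 to 0.48) in macrophage barcodes. So Vcam1 differed by more than 2-fold between the diet groups on the WT side in 5 of 6 classes, and on the LysM-DKO side in T barcodes alone, where 3 UMIs gave -1.35 (-3.86 to -0.01). Whether the diet ratios differ between genotypes was not tested.

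On western diet, Vcam1 was lower in LysM-DKO/ApoE-/- than in WT/ApoE-/- in every class, although the sign in macrophage barcodes turned under 3 alternatives. The log2 ratio was -2.77 (-2.81 to -2.73) in smooth muscle, -1.64 (-1.70 to -1.58) in endothelial, -1.60 (-1.68 to -1.52) in fibroblast and -0.42 (-0.61 to -0.24) in macrophage barcodes. The macrophage value was above 0, up to 0.41, with single-class barcodes, under the last matching class and with doubled class thresholds. In T barcodes it was -3.15 (-5.66 to -1.81) from 3 UMIs against 256, and it came inside 2-fold, to as little as -0.79, with single-class barcodes and under the last matching class. In B barcodes 0 of 50189 UMIs, from only 14 barcodes, stood against 417 UMIs from 503 barcodes, most of them held by few. Taking 3 UMIs for the 0 put Vcam1 5.46-fold lower, a bound for counting error only. Over the alternatives the log2 value was as little as -1.42. On normal diet LysM-DKO was close to WT in endothelial barcodes, at 0.05 (-0.03 to 0.14), and higher than WT in smooth muscle barcodes, at 0.84 (0.76 to 0.92), and in fibroblast barcodes, at 0.53 (0.42 to 0.64). The genotype ratio of smooth muscle and fibroblast barcodes thus had opposite signs on the 2 diets.

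The difference was one of barcodes as well as of level. Vcam1 had at least 1 UMI in 32.1%, 33.6%, 75.4% and 42.2% of endothelial barcodes and in 17.7%, 20.7%, 48.4% and 15.1% of smooth muscle barcodes. With each barcode thinned to 1000 UMIs the shares were 15.3%, 17.2%, 53.0% and 24.5% in endothelial and 6.42%, 9.03%, 34.2% and 4.61% in smooth muscle barcodes. B barcodes, a class not known for the gene, had it in 8.67%, 15.5%, 16.5% and 0%, at median depths of 2952, 3518, 1924 and 2226.5 UMIs against 6582.5, 4527, 7477.5 and 7783 in endothelial barcodes. In B barcodes of the WT/ApoE-/- western diet library 10 barcodes held 74.8% of the 417 Vcam1 UMIs, and 1 of them held 190.

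Within smooth muscle barcodes Vcam1 was concentrated in those with 3 or more UMIs of Lum, Spp1 and Tnfrsf11b, genes of the modulated, matrix-making state of the wall. These were 124, 143, 4607 and 260 barcodes, or 3.36%, 4.101%, 52.1% and 3.92% of the class, and they held 27.5%, 47.2%, 88.8% and 50.9% of its Vcam1 UMIs. Vcam1 was at 540, 1231, 1733 and 1370 CPM in them and at 68.9, 91.4, 207 and 72.2 CPM in the others. Both sets were highest in the WT/ApoE-/- western diet library. Without these barcodes the log2 ratio of Vcam1 in smooth muscle was 1.59 for WT/ApoE-/- western over WT normal diet and -1.52 for LysM-DKO/ApoE-/- over WT/ApoE-/-. Over all kept barcodes, those past the same sum were 9.74%, 11.9%, 55.8% and 12.0% and held 48.4%, 45.6%, 91.9% and 61.7% of all Vcam1 UMIs.

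**Figure D2:**
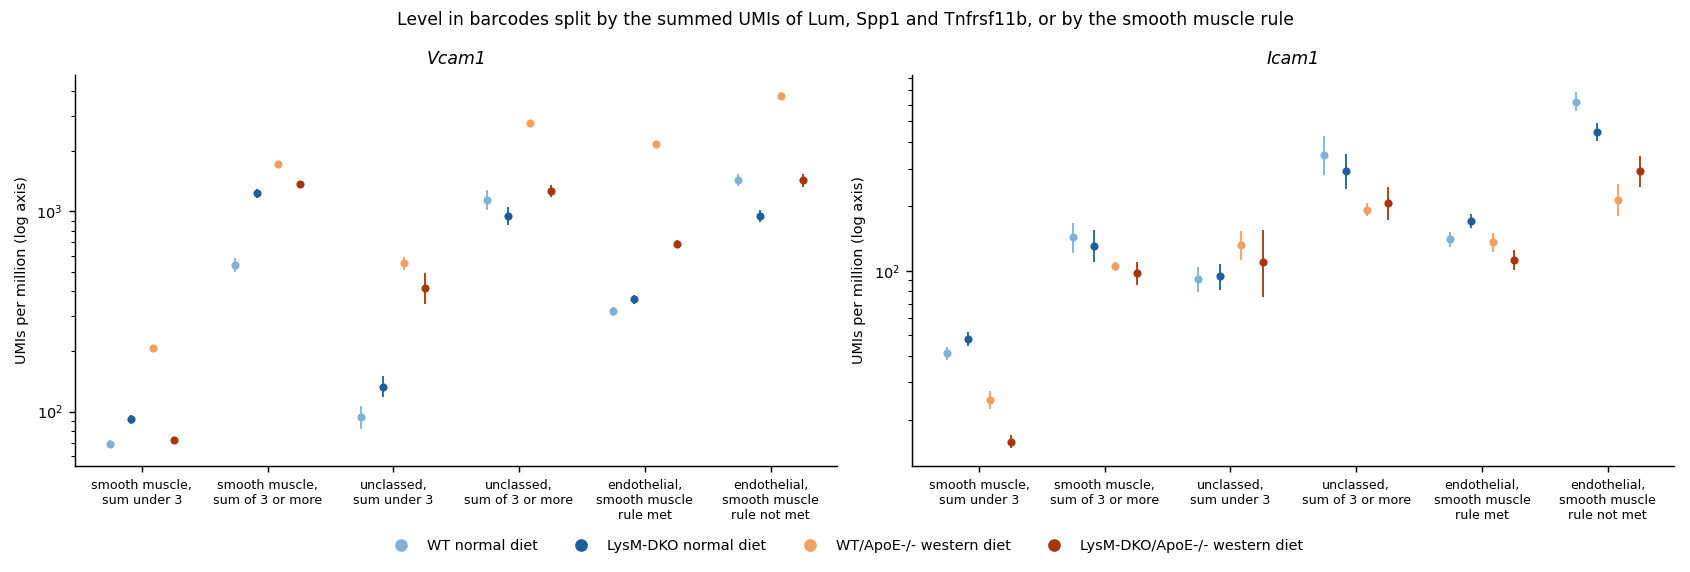
Vcam1 (left) and Icam1 (right) in CPM (log axis), in smooth muscle and unclassed barcodes split by the summed UMIs of Lum, Spp1 and Tnfrsf11b and in endothelial barcodes split by the smooth muscle rule, 1 point per library with its exact Poisson 95% interval. Vcam1 was higher past the sum of 3 in every library. Icam1 in smooth muscle barcodes was also higher past the sum in every library, where it spanned 97.3 to 143.

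A list of 8 modulated genes (Lum, Spp1, Tnfrsf11b, Col1a1, Dcn, Fn1, Timp1, Lgals3) was higher in the same library in every class, also in macrophage barcodes, where Vcam1 was inside 2-fold. For WT/ApoE-/- western over WT normal diet, 8 of 8 were past 2-fold higher in macrophage, B, T, endothelial and smooth muscle barcodes and 7 of 8 in fibroblast barcodes, beside 18.5%, 5.27%, 11.4%, 5.91%, 5.43% and 9.59% of all genes. The median log2 ratio of the list was 2.94 in smooth muscle, 3.35 in endothelial, 3.72 in fibroblast, 4.15 in macrophage, 2.41 in B and 2.17 in T barcodes, beside -0.01, -0.02, 0.13, 0.22, 0.04 and 0.22 over all genes. For LysM-DKO/ApoE-/- over WT/ApoE-/- 7 of 8 were lower in smooth muscle, 6 in endothelial, 6 in fibroblast and 5 in macrophage barcodes, beside 9.52%, 3.68%, 3.7% and 8.34% of all genes. In T barcodes 4 of 8 were lower, beside 7.44%, and in B barcodes 4 of 7 were lower and 2 higher, beside 5.69% and 19.6%. Fibroblast markers moved the same way in endothelial barcodes, at 2508, 2957, 12350 and 5557 CPM summed over 8 markers. Of these markers Lum, Col1a1 and Dcn are also in the modulated list. The class lists named here were picked with these libraries in view, and their part in the Vcam1 values was not tested.

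Endothelial barcodes that did not meet the smooth muscle rule had higher Vcam1 than those that did, at 1436, 948, 3771 and 1433 CPM against 317, 364, 2175 and 688. The WT/ApoE-/- western diet library was highest in both, and the log2 ratio over WT normal diet was 1.39 outside the smooth muscle rule. There LysM-DKO/ApoE-/- over WT/ApoE-/- was at -1.40 and LysM-DKO over WT on normal diet at -0.60. Lum in these barcodes was at 695, 278, 5675 and 2452 CPM, and Kdr, a VEGF receptor of endothelium, at 300, 371, 64.0 and 84.2. The part of the Lum-carrying RNA in these Vcam1 levels was not tested.

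Among endothelial barcodes thinned to 1000 UMIs, those with a Vcam1 UMI had less capillary marker RNA than those without, by log2 ratios of -1.31, -1.42, -1.22 and -1.28. Outside the smooth muscle rule the same difference was -1.76, -2.07, -3.08 and -2.17. Their summed NF-kB list was higher, by 0.74, 0.82, 0.19 and 0.20, and their modulated list by 0.84, 0.27, 0.77 and 1.85. In smooth muscle barcodes with a Vcam1 UMI the modulated list was higher by 0.55, 0.60, 1.08 and 1.22 and the contractile list (Acta2, Tagln, Mylk and others) was at -0.30, -0.33, -0.61 and -0.60, lower in all 4 libraries. All 4 libraries thus had the same sign for each of these lists, although each is a description of cells within 1 library.

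Icam1, the inducible ligand of Itgb2 integrins, had another pattern than Vcam1 in fibroblast, endothelial and macrophage barcodes and shared its order of the western diet libraries in smooth muscle barcodes. In fibroblast barcodes it was at 310, 272, 189 and 254 CPM, in endothelial barcodes at 199, 221, 150 and 137, and in macrophage barcodes at 235, 137, 136 and 266. In smooth muscle barcodes it was at 45.7, 53.1, 63.8 and 20.1 CPM. Fibroblast (189 to 310), macrophage (136 to 266) and endothelial barcodes (137 to 221) were the 3 highest classes and overlapped. T (70.0 to 109), B (60.8 to 99.6) and smooth muscle barcodes (20.1 to 63.8) followed, each overlapping the next but T barcodes staying below the endothelial range.

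In fibroblast barcodes, where Vcam1 was 4.05-fold higher in WT/ApoE-/- western than in WT normal diet, Icam1 was lower, at a log2 ratio of -0.71 (-0.86 to -0.57). In endothelial barcodes Icam1 was at -0.40 (-0.56 to -0.25) in that contrast. Macrophage barcodes had a genotype ratio of Icam1 of -0.78 (-1.14 to -0.41) under normal diet, and of 0.98 (0.72 to 1.22) under western diet, inside 2-fold in both. There the genes of the NF-kB list had medians of -0.31 and 0.51 in the same contrasts, and the dissociation stress list (Fos, Jun, Egr1 and others) had medians of -0.46 and 0.30; their part in the Icam1 values was not tested.

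Between the WT diet groups Icam1 in smooth muscle barcodes was at 0.48 (0.38 to 0.59), and at -0.72 without the barcodes past the sum of Lum, Spp1 and Tnfrsf11b. The Icam1 value of smooth muscle barcodes was lowest in LysM-DKO/ApoE-/- on western diet. Against WT/ApoE-/- the log2 ratio was -1.67 (-1.78 to -1.56), and against LysM-DKO on normal diet it was -1.40 (-1.54 to -1.27). Without the barcodes past the sum the first of these was -0.65, inside 2-fold. Smooth muscle barcodes past the sum had Icam1 at 143, 131, 105 and 97.3 CPM and those under it at 40.9, 47.9, 24.9 and 15.8. Endothelial barcodes outside the smooth muscle rule had it at 619, 445, 215 and 294 CPM, higher than the 140, 171, 136 and 113 of those that met the rule. In that subset WT/ApoE-/- western was below WT normal diet by -1.52, a larger Icam1 difference than in the whole class.

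Barcodes with Icam1 were richer in NF-kB genes. In smooth muscle barcodes the summed list was higher where Icam1 was seen, by log2 ratios of 0.77, 0.68, 0.59 and 1.11, and in endothelial barcodes by 0.99, 0.86, 0.49 and 0.43. Contractile genes were lower in smooth muscle barcodes with Icam1, by -0.50, -0.51, -0.52 and -0.53. Vcam1 and Icam1 were seen in the same thinned endothelial barcode in 36, 50, 32 and 16 barcodes, beside 15.3, 24.9, 23.3 and 9.78 from the product of their shares.

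Icam2, the resting-endothelium ligand, had more UMIs in endothelial barcodes than in any other class, at 70.5%, 62.7%, 44.6% and 83.6% of its UMIs. It was at 44.3, 50.5, 12.1 and 28.7 CPM in endothelial barcodes, from 225, 257, 41 and 102 UMIs, lowest in the library where Vcam1 was highest. The WT/ApoE-/- western over WT normal log2 ratio was -1.86 (-2.39 to -1.39), and LysM-DKO/ApoE-/- over WT/ApoE-/- gave 1.24 (0.71 to 1.81). The endothelial markers summed over 8 genes went the same way, at 870, 1164, 294 and 433 CPM; their part in the Icam2 values was not tested. Outside the smooth muscle rule Icam2 was at 153, 122, 42.7 and 59.5 CPM, again low in both western diet libraries, and there the western genotype ratio was 0.48, inside 2-fold; the lowest value over the alternatives was 0.46. The class order of Icam2 began with endothelial (12.1 to 50.5) and B barcodes (7.05 to 19.9), which overlapped.

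Sele, E-selectin, was rare and held by few barcodes. Endothelial barcodes had 117, 144, 32 and 81 UMIs of it, or 23.0, 28.3, 9.45 and 22.8 CPM, and the 10 barcodes with most held 93.2%, 63.2%, 78.1% and 85.2% of them. WT/ApoE-/- western diet was the low library, at a log2 ratio of -1.27 (-1.90 to -0.71) over WT normal diet, and without the 1 barcode with most Sele UMIs in each library it was -0.61. LysM-DKO/ApoE-/- over WT/ApoE-/- was 1.26 (0.66 to 1.91). Fibroblast barcodes came next, at 7.38, 3.55, 14.3 and 13.8 CPM, in a range that overlapped the endothelial one. Fibroblast barcodes held 21, 13, 56 and 46 Sele UMIs and smooth muscle barcodes 11, 32, 127 and 42. In the WT/ApoE-/- western diet library both classes held more than the 32 of endothelial barcodes. Outside the smooth muscle rule the endothelial values were 145, 50.7, 16.4 and 69.8 CPM, from 90, 47, 10 and 34 UMIs. These lay in only 5, 18, 4 and 7 barcodes, and 1 barcode held 59 of the first 90.

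Selp, P-selectin, was inside 2-fold over the libraries in endothelial barcodes, at 47.9, 59.5, 44.6 and 37.2 CPM from 243, 303, 151 and 132 UMIs. Its endothelial log2 ratios were all inside 2-fold: 0.31 (0.07 to 0.56) and -0.26 (-0.61 to 0.08) between genotypes on normal and western diet, and -0.10 (-0.41 to 0.20) and -0.68 (-0.99 to -0.38) between the diet groups. Outside the smooth muscle rule endothelial Selp was at 136, 109, 75.5 and 119 CPM, from 84, 101, 46 and 58 UMIs. There both genotype ratios and the LysM-DKO diet ratio changed sign, to -0.32, 0.65 and 0.13, and the WT diet ratio was -0.84. The values -0.32 and -0.84 rest on WT normal diet, where 1 barcode held 42 of the 84 UMIs. They were not computed without that barcode, so their signs are not settled. Fibroblast barcodes had 1, 8, 134 and 26 UMIs, or 0.351, 2.18, 34.3 and 7.82 CPM, and smooth muscle barcodes 22, 60, 280 and 46 UMIs, or 0.951, 3.49, 8.14 and 0.954 CPM. The WT/ApoE-/- western library was the high one in both, at 6.03 (4.105 to 11.92) over WT normal diet in fibroblast barcodes, against 1 UMI, and at 3.07 (2.47 to 3.80) in smooth muscle barcodes.

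The endothelial class held 81.8% and 65.9% of all Selp UMIs on normal diet, 20.6% in WT/ApoE-/- and 58.9% in LysM-DKO/ApoE-/- on western diet. In WT/ApoE-/- smooth muscle barcodes held 38.3%, fibroblast 18.3% and unclassed barcodes 18.7%. Of the 280 smooth muscle UMIs there, 257 were in barcodes past the Lum, Spp1 and Tnfrsf11b sum, and no single barcode had more than 7. Without those barcodes the smooth muscle ratio over WT normal diet was 0.52, inside 2-fold. Few barcodes carried the fibroblast signal, the 10 with most holding 69.4% of the 134 UMIs. LysM-DKO/ApoE-/- over WT/ApoE-/- was -2.11 (-2.80 to -1.52) in fibroblast barcodes, or -0.78 under the last matching class, and -3.08 (-3.58 to -2.64) in smooth muscle barcodes. In smooth muscle barcodes past the sum Selp was at 14.4 CPM in LysM-DKO/ApoE-/- against 15.4 in WT/ApoE-/-. In those under the sum it was at 0.219 against 1.30.

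These Selp UMIs outside the endothelial class were set beside the endothelial markers carried by the same barcodes. Per 100 UMIs of the 8 endothelial markers, endothelial barcodes held 5.50, 5.11, 15.2 and 8.59 Selp UMIs, fibroblast barcodes 0.385, 1.80, 40.7 and 5.19, and smooth muscle barcodes past the sum 2.2, 2.7, 20.6 and 17.1. The class rules send barcodes with Pecam1 and Cdh5 UMIs to the endothelial class, so the ratio is set in part by the rules and is read here between libraries within a class. The fibroblast and modulated smooth muscle values were highest in WT/ApoE-/-. Fibroblast barcodes there that did not meet the smooth muscle rule had Selp at 21.3 CPM, against 1.27 CPM or less in both normal diet libraries. In the whole fibroblast class the 8 endothelial markers summed to 91.4, 121, 84.2 and 151 CPM. Their part in the fibroblast Selp values was not tested. With barcodes thinned to 1000 UMIs, the 78 smooth muscle barcodes with Selp in WT/ApoE-/- had a higher modulated list than those without, at 1.01 (0.94 to 1.08), a higher fibroblast list, at 0.91 (0.81 to 0.998), and a lower contractile list, at -0.55 (-0.62 to -0.48). The modulated and fibroblast lists share Lum, Col1a1 and Dcn, so their values are not separate results.

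**Figure D3:**
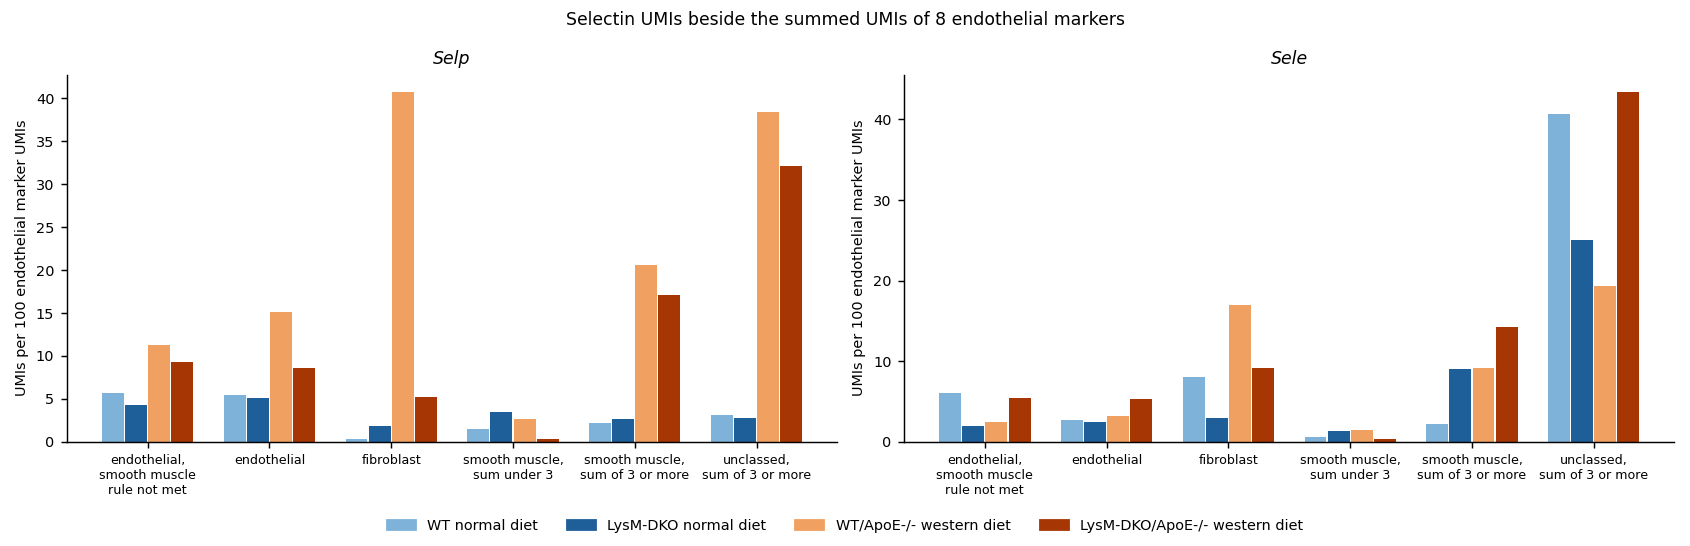
Selp (left) and Sele (right) UMIs per 100 UMIs of 8 endothelial markers summed, in 6 sets of barcodes, 1 bar per library and no error bars. Selp stood at 40.7 in fibroblast barcodes of the WT/ApoE-/- western diet library against 0.385, from 1 UMI, in the WT normal diet library. The highest Sele bar of each library was that of unclassed barcodes past the sum, from only 13, 9, 65 and 23 Sele UMIs. These stood over 32, 36, 336 and 53 marker UMIs. In WT/ApoE-/- the bar was at 19.3 against 17.0 in fibroblast barcodes.

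Sele and Selp were seen together in 2, 9, 0 and 1 thinned endothelial barcodes, beside 0.134, 1.12, 0.0990 and 0.230 from the product of their shares. Platelet markers, the other known source of P-selectin, summed to 37.4, 15.7, 2.95 and 3.38 CPM in endothelial barcodes and to 7.60, 7.04, 3.40 and 1.97 in smooth muscle barcodes; their part in the Selp values was not tested.

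Selplg, which carries the sugar ligand of the selectins on leukocytes, was highest in T barcodes. T barcodes had 185, 114, 76.3 and 108 CPM, macrophage barcodes 37.7, 38.2, 47.0 and 44.2, and B barcodes 40.0, 23.5, 7.83 and 19.9, the last from 1 UMI. T barcodes (76.3 to 185) were separate from all other classes, while macrophage (37.7 to 47.0) and B barcodes (7.83 to 40.0) overlapped. T barcodes of WT/ApoE-/- western were below WT normal diet by -1.27 (-1.64 to -0.93), or -0.80 at the least over the alternatives, and LysM-DKO was below WT on normal diet by -0.70 (-0.90 to -0.51). In macrophage barcodes all 4 Selplg ratios were between -0.07 and 0.28, with intervals that included 0. T barcodes held 50.3%, 35.3%, 14.1% and 5.20% of Selplg UMIs, macrophages 1.35%, 4.61%, 34.1% and 12.4%.

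Itga4, the VLA-4 chain that binds VCAM-1, was highest in lymphocytes. T barcodes had 73.8, 161, 215 and 132 CPM and B barcodes 86.4, 107, 196 and 99.6, the last of each from 16 and 5 UMIs. Macrophage barcodes had 44.0, 65.4, 37.1 and 54.1 CPM. T (73.8 to 215) and B barcodes (86.4 to 196) overlapped, and both were above macrophages (37.1 to 65.4). WT normal diet was the low library for T barcodes: LysM-DKO was above it by 1.13 (0.91 to 1.35) and WT/ApoE-/- western by 1.54 (1.27 to 1.81). With barcodes of a single class only, or under the last matching class, the first of these was inside 2-fold, down to 0.78.

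On western diet Itga4 did not differ by 2-fold between genotypes in any class. The T ratio was -0.66 (-1.53 to 0.04) and the macrophage ratio 0.56 (-0.01 to 1.07), both with intervals that included 0. Endothelial barcodes had 17, 66, 45 and 28 UMIs, at ratios of 1.92 (1.17 to 2.82) for LysM-DKO over WT and -0.74 (-1.49 to -0.04) on western diet, and the first was -0.17 under the last matching class. Those with no Myh11 or Cnn1 UMI had 0 of 117497, 154656, 127283 and 139944 UMIs, so Itga4 was not detectable at this depth in them.

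Itgb2, the chain of LFA-1 and Mac-1, was the most even of the 8 genes in its main class. Macrophage barcodes had 109, 131, 127 and 140 CPM from 52, 144, 496 and 98 UMIs, and none of the 4 ratios left the range from 0.10 to 0.26. Macrophages (109 to 140) were above T (41.4 to 85.3) and B barcodes (0 to 35.2) without overlap. The share of Itgb2 UMIs in macrophages was 11.5%, 19.0%, 57.8% and 73.7%, beside 92, 208, 939 and 135 macrophage barcodes and fewer lymphocytes in the western diet libraries.

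**Figure D4:**
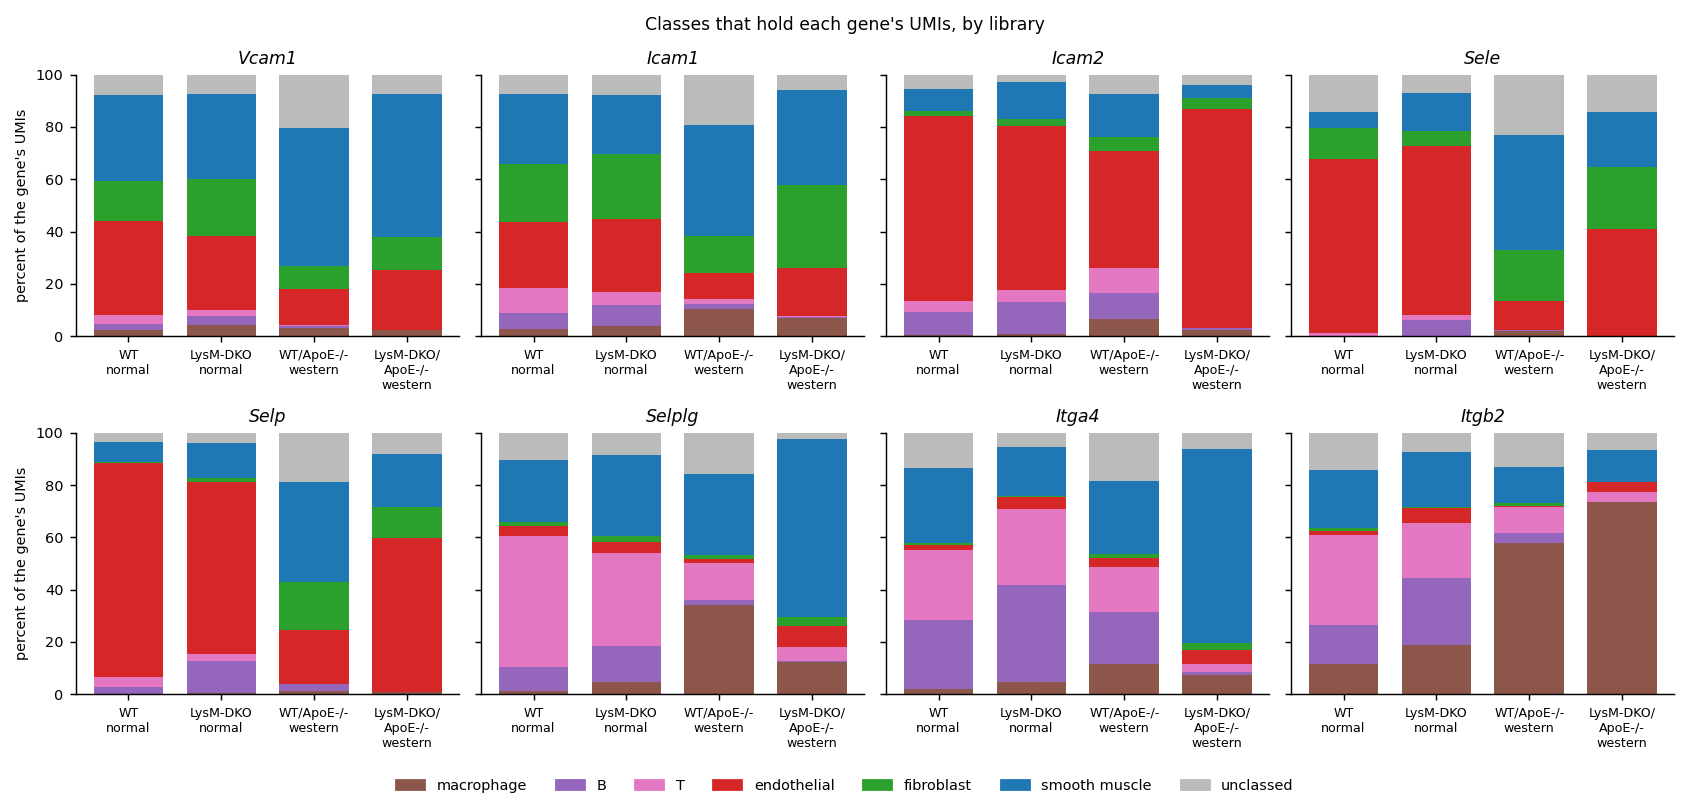
Percent of each gene's UMIs in each class, stacked to 100, 1 bar per library. Selp moved from 81.8% endothelial in the WT normal diet library to 20.6% in the WT/ApoE-/- western diet library, and Itgb2 from 11.5% to 57.8% macrophage in the same pair.

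In smooth muscle barcodes most of the 8 genes went one way together between genotypes, and the sign turned with diet. On normal diet all 8 were higher in LysM-DKO, 4 of them past 2-fold: Icam2 at 1.57 (0.90 to 2.31), Sele at 1.93 (0.95 to 3.11), Selp at 1.86 (1.15 to 2.65) and Itgb2 at 1.09 (0.72 to 1.47), beside 6.48% of all genes in the class, while none was past 2-fold lower, beside 0.975%. On western diet all 8 were lower in LysM-DKO/ApoE-/-, 6 of them past 2-fold: Vcam1, Icam1, Icam2 at -1.74 (-3.46 to -0.36), Sele at -2.07 (-2.62 to -1.57), Selp, and Itgb2 at -3.33 (-4.22 to -2.61), beside 9.52% of all genes, and none was past 2-fold higher, beside 1.92%. Barcodes past the sum of Lum, Spp1 and Tnfrsf11b were 52.1% of the class in WT/ApoE-/- and 3.92% in LysM-DKO/ApoE-/-. Within them Sele was higher in LysM-DKO/ApoE-/-, at 12.0 against 6.82 CPM, from 30 and 114 UMIs. Selp was close, at 14.4 against 15.4 CPM. Under the sum both were lower in LysM-DKO/ApoE-/-, Sele at 0.262 against 0.736 and Selp at 0.219 against 1.30 CPM. The part of these shares in the ratios was not tested. Between the LysM-DKO diet groups 7 of 8 were past 2-fold lower on western diet, all but Vcam1, beside 17% of all genes, and none higher, beside 2.72%. Between the WT diet groups Vcam1, Sele and Selp were past 2-fold higher and Icam2 and Selplg lower, beside 5.43% and 9.25%. Under the last matching class Icam2 went to 0.61, Selp to 0.90 and Selplg to -0.29, the other sign, on normal diet, and on western diet Icam2 went to 0.73 and Sele to -0.89. Sele on normal diet was 0.52 with doubled class thresholds and Itgb2 0.70 with equal weight per cell. Between the WT diet groups Sele was 0.83 without the barcodes past the modulated sum and Icam2 -0.91 with doubled class thresholds, and between the LysM-DKO diet groups Sele was -0.65 and Itga4 -0.74 at the least. Endothelial markers in these barcodes summed to 63.3, 101, 61.8 and 67.9 CPM, so they were not lower in LysM-DKO/ApoE-/- on western diet. Their part in the smooth muscle values of Icam2, Sele and Selp was not tested. Leukocyte and erythroid markers did move alike with the 8 genes between genotypes. T markers summed to 66.9, 102, 23.8 and 1.82 CPM and macrophage markers to 44.3, 113, 86.4 and 15.1. B markers summed to 410, 799, 246 and 208 and erythroid markers to 13745, 23454, 470 and 70.4. Selplg was at 13.7, 16.5, 4.86 and 3.53 CPM, Itga4 at 12.4, 16.8, 10.3 and 7.94, and Itgb2 at 4.32, 9.20, 3.43 and 0.332. The part of the leukocyte and erythroid RNA in these smooth muscle values was not tested.

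**Figure D5:**
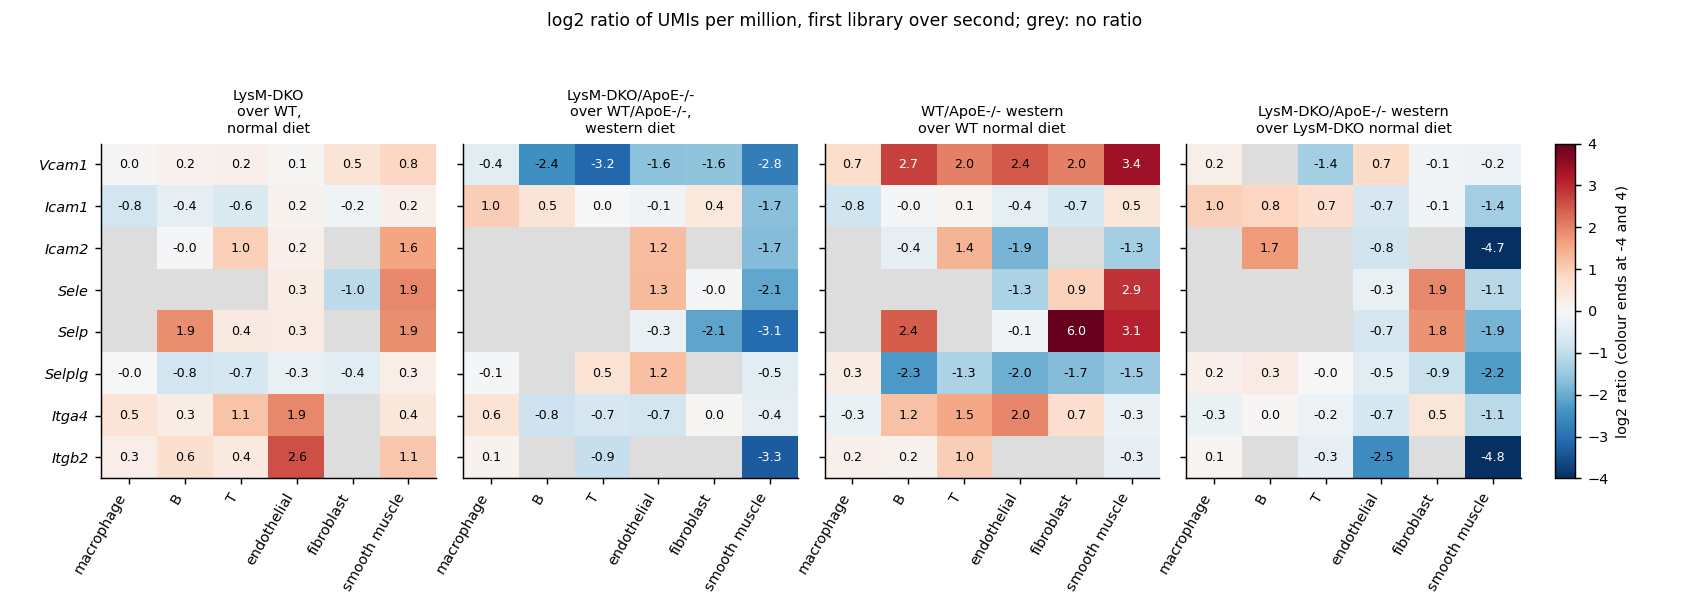
Log2 ratio of CPM for the 8 genes in 6 classes, 1 panel per contrast, red higher and blue lower in the first-named library, colour ending at 4 either way and grey where no ratio was formed. Vcam1 is blue in all 6 classes for LysM-DKO/ApoE-/- over WT/ApoE-/-, from -0.42 in macrophage barcodes, whose sign turned under other class rules, to -3.15 in T barcodes, which had 3 UMIs in 1 library, with B barcodes, at 0 UMIs in 1 library, shown at their bound.

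Over all 6 classes, a ratio could be formed for 39, 33, 39 and 36 of 48 combinations of gene and class. For LysM-DKO over WT on normal diet 8 were past 2-fold higher and 1 lower, beside 4.8% and 1.44% of all genes over the same classes. For LysM-DKO/ApoE-/- over WT/ApoE-/- 3 were higher and 11 lower, beside 4.96% and 6.53%. For WT/ApoE-/- western over WT normal diet 13 were higher and 8 lower, beside 8.98% and 7.89%, and for the LysM-DKO pair 3 were higher and 9 lower, beside 9.53% and 8.97%. In endothelial barcodes 2 genes were past 2-fold higher (Itga4, Itgb2) and none lower for LysM-DKO over WT, beside 3.51% and 1.05% of all genes, and under the last matching class neither was, at -0.17 and 0.48. There 3 were higher (Icam2, Sele, Selplg) and 1 lower (Vcam1) for LysM-DKO/ApoE-/- over WT/ApoE-/-, beside 3.03% and 3.68%, and 2 were higher (Vcam1, Itga4) and 3 lower (Icam2, Sele, Selplg) for the WT diet pair, beside 5.91% and 8.55%. For the LysM-DKO diet pair Itgb2 alone was lower and none higher, beside 8.75% and 3.45%. The contrasts share libraries, so their counts are not independent of each other.

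Other genes of the adhesion pathway were also compared between genotypes in endothelial barcodes. For LysM-DKO/ApoE-/- over WT/ApoE-/-, none of 12 NF-kB genes, 10 selectin ligand genes or 10 junction genes was past 2-fold. Of all genes 3.03% were higher and 3.68% lower there, so lists of this size would hold few such genes. The list medians were -0.04, -0.07 and 0.15 beside 0.03 over all genes. Past 2-fold higher were Itga1, at 1.16, and Nos3, the endothelial nitric oxide synthase, at 2.11 (1.42 to 2.94). For WT/ApoE-/- western over WT normal diet Nos3 was at -3.01 (-3.80 to -2.37). Of 10 junction genes Alcam, at 1.69, was higher there and F11r, Esam and Bcam, at -1.27, -1.06 and -1.20, lower, beside 5.91% higher and 8.55% lower of all genes in that contrast. Of 10 selectin ligand genes Cd44, at 1.33, and Chst2, at 1.16, were higher and Podxl, at -1.19, lower, beside the same 5.91% and 8.55%. The NF-kB list had a median of -0.35 in this contrast, in which Vcam1 was 5.43-fold higher. Irf1 at -1.39 and Traf1 at -1.11 were past 2-fold lower, beside 8.55% of all genes, and none of 12 higher, beside 5.91%.

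In smooth muscle barcodes of LysM-DKO/ApoE-/- over WT/ApoE-/-, 5 of 11 selectin ligand genes were past 2-fold lower, beside 9.52% of all genes, with a list median of -0.57 beside -0.02 over all genes. They were Gcnt1 at -4.06, Podxl at -1.75, St3gal4 at -1.15, Cd34 at -1.09 and Cd44, a hyaluronan receptor, at -1.07. Of 11 other integrin chains, 5 were lower, with a median of -0.50: Itgax at -3.48, Itgal at -1.74, Itgam at -1.66, Itgb7 at -1.21 and Itgae at -1.13, chains known from leukocytes. Of 12 NF-kB genes, 3 were lower, with a median of -0.37: Tnfaip2 at -2.93, Traf1 at -2.18 and Tnfaip3, which encodes the inhibitor A20, at -1.39. None of these 3 lists had a gene past 2-fold higher, beside 1.92% of all genes. Between the LysM-DKO diet groups 7 of 12 NF-kB genes were lower on western diet in this class, beside 17% of all genes, with a median of -1.07, and 6 of 11 integrin chains, with a median of -1.78.

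The genes whose profile was most like each member were ranked by Pearson r of log2(CPM + 10) over 23 profiles of class and library, among 13915 genes, with profiles sharing library and depth. For Vcam1 they were Sulf2 (0.912), Gda (0.909), Il13ra1 (0.896), Dusp18 (0.872) and Cx3cl1 (0.870), and for Icam1 Xdh (0.893), Slfn5, Lgals9, Emp1 and Ptgs1 (0.839). For Icam2 they were She (0.962), Egfl7, Rasip1, Cldn5 and Adgrl4 (0.937). Sele was closest to Galnt18 (0.930), Il7, Ecscr, Fgd5 and Plvap (0.907), and Selp to Ecscr (0.922), Lrg1, Adcy4, Mall and Palmd (0.853), so Ecscr was among the 5 for both selectins. Selplg was closest to Hcst (0.968), Madd, Slc9a3r1, Spn and C9orf72 (0.931), Itga4 to Capza1 (0.964), Rac2, Ikzf1, Dock2 and Arhgap15 (0.958), and Itgb2 to Ucp2 (0.980), Cyth4, Bcl2a1b, Cd84 and Tnfrsf1b (0.968).

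Among unclassed barcodes, 15, 12, 30 and 2 held 2 or more UMIs of the natural killer genes Nkg7 and Klrd1, and in these Itga4 was at 157, 405, 393 and 1070 CPM and Itgb2 at 63.0, 203, 186 and 856. Unclassed barcodes past the Lum, Spp1 and Tnfrsf11b sum numbered 79, 126, 1445 and 113, and in these Vcam1 was at 1142, 953, 2760 and 1270 CPM, Icam1 at 348, 292, 193 and 206 and Sele at 50.3, 23.7, 15.2 and 37.4. Vcam1 was again highest in the WT/ApoE-/- western diet library. Icam1 there, from 827 UMIs, was close to LysM-DKO/ApoE-/-, from 127 UMIs, so the lowest of the 2 is not settled. Sele had its lowest value there, but rested on 13, 9, 65 and 23 UMIs, and 1 barcode held 12 of the first 13.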

How the data were processed

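Per the labels, aortas were perfused, digested with collagenases and liberase, and loaded on a 10x Genomics 3' kit (v3.1). The deposited matrices hold UMI counts per gene and barcode, unscaled, made with Cell Ranger 6.0.1 for both normal diet libraries and 6.1.2 for both western diet libraries, per the file headers; the submitters' processing notes name Cell Ranger 6.1.2, Seurat 4.1.0 and mm10. The 4 libraries held 51281643, 50662515, 67450979 and 62510744 UMIs, and kept barcodes had medians of 4167, 3404, 2103 and 6761.

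Class rules, applied in order, were C1qa, C1qb and C1qc of 5 or more UMIs (macrophage), Cd79a and Ms4a1 of 2 (B), Cd3d, Cd3e and Trac of 2 (T), Pecam1 and Cdh5 of 2 (endothelial), Pdgfra and Serpinf1 of 3 (fibroblast), and Myh11 and Cnn1 of 3 (smooth muscle). UMIs were summed per library and class; 0.5 UMIs were added for the point value of a ratio, and a 0 was taken as 3 UMIs for a bound. Doublets were kept in the values given; as an alternative the barcodes with the highest Scrublet scores were left out, 0.8% per 1000 scored. Python 3.11.15, scipy 1.17.1 and scanpy 1.11.5 were used, and the ratio and interval code was tested on simulated data. The genes, gene lists and alternatives were chosen with earlier results of these data known. The genes named are the 8 members, the 5 most like each, members of the lists past 2-fold in a contrast described, and Epn1, Epn2, Lyz2 and Apoe as label checks. Genes of cell states and cell types named beside a result come from the marker lists. One gene of the selectin ligand list is not reported here, and the list's counts and medians leave it out.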

Additional observations from a re-analysis of the deposited data

Results flagged for a closer look

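For 12 of the 31 combinations of gene and class with a ratio on both diets, the genotype log2 ratio had opposite signs on normal and western diet with both counting intervals off 0. The difference between the diets was not tested, since each ratio rests on 1 library per group. The share of all genes that meet this rule was not computed, so the count is not read as a trait of these genes. All 8 genes showed this in smooth muscle barcodes, although Selplg on normal diet (-0.29) and Icam2 on western diet (0.73) had the other sign under the last matching class. There Vcam1 was at 0.84 on normal and -2.77 on western diet, Icam1 at 0.22 and -1.67, Icam2 at 1.57 and -1.74, and Sele at 1.93 and -2.07. Selp was at 1.86 and -3.08, Selplg at 0.27 and -0.46, Itga4 at 0.44 and -0.37, and Itgb2 at 1.09 and -3.33. In smooth muscle barcodes past the modulated sum, Sele on western diet was higher in LysM-DKO/ApoE-/-, at 12.0 against 6.82 CPM. Under the sum it was lower, at 0.262 against 0.736. In fibroblast barcodes Vcam1 was at 0.53 and -1.60, whereas Icam1 went the other way, at -0.19 and 0.43. In macrophage barcodes Icam1 was at -0.78 and 0.98, and in endothelial barcodes Itga4 was at 1.92 and -0.74.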

How the results depend on the processing

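No paired analysis was possible because each group had 1 library. Of 56 ratios past 2-fold, 54 kept their sign in every alternative run and 31 also stayed past 2-fold. Of 91 ratios inside 2-fold, 41 turned sign in at least 1 alternative. The signs that turned, both under the last instead of the first matching class, were those of Itga4 in endothelial barcodes for LysM-DKO over WT on normal diet, at -0.17, and of Icam2 in smooth muscle barcodes for LysM-DKO/ApoE-/- over WT/ApoE-/-, at 0.73; the cause was not tested. Under that setting 4 ratios were higher for LysM-DKO over WT on normal diet and 7 lower for LysM-DKO/ApoE-/- over WT/ApoE-/-. The single lower ratio of LysM-DKO over WT (Sele in fibroblast barcodes) became 0 with the highest doublet scores left out, without the barcode with the most UMIs of the gene and with at least 50 UMIs for a ratio, and 4 with a fold of 1.5. For the LysM-DKO diet pair 5 were higher without the highest doublet scores, and 7 higher and 14 lower with a fold of 1.5. Of 1344 alternative levels, 1107 stayed within the counting interval of the value given. Leaving out the barcode with most UMIs, the endothelial subset and the smooth muscle subset were chosen after seeing the data; the other alternatives were minimums of 500 and 2000 UMIs, 20% mitochondrial UMIs, single-class barcodes, doubled class thresholds, equal weight per cell and median-ratio scaling. That scaling moved the median of all genes by up to 0.26 in T and 0.24 in B barcodes, by up to 0.18 in fibroblast and 0.16 in macrophage barcodes, and by 0.08 or less in endothelial and smooth muscle barcodes. Depth limits B and T barcodes of LysM-DKO/ApoE-/-, where 3 UMIs are worth 59.8 and 24.8 CPM.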
